A study of Mus musculus with 2 samples.

Results

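Cytotoxic effector genes encode the proteins with which natural killer (NK) cells kill other cells and call further immune cells to them, and 9 of them were followed here among the 32285 mouse genes of the deposited matrices. They were chosen by symbol. Gzma, Gzmb and Gzmc encode granzymes, Prf1 encodes perforin, and Nkg7 encodes a protein of the granule membrane. Fasl and Tnfsf10 encode the death ligands Fas ligand and TRAIL, and Xcl1 and Ccl5 encode chemokines. All 9 were found in both libraries, and none of them served to define a class of cells.

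The series sampled leukocytes of 143B xenografts, made by implanting this human osteosarcoma line into female nude mice 4 weeks old at the start. The cells were enriched with magnetic beads against CD45, the common surface protein of leukocytes. Nude mice have no thymus and form few mature T cells, so NK cells are the main killer lymphocytes of this host. One group of tumors was treated with control IgG and the other with an antibody against CD3L1 (ITPRIPL1), a checkpoint protein, both at 10 mg/kg in 4 doses given every 3 days. Each group gave 1 library of 10x Genomics droplets made from a set of 3 tumors, whose cells the files do not tell apart, so a difference between the libraries has no replicate check and every interval below covers counting error only.

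NK cells kill by contact. Perforin opens the membrane of the target, granzymes enter through it and cut proteins that start cell death, and Fas ligand and TRAIL start cell death through receptors on the target. XCL1 draws in type 1 conventional dendritic cells, and CCL5 attracts monocytes, T cells and other leukocytes.

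Cells were barcodes with at least 500 unique molecular identifiers (UMIs, 1 for each RNA molecule captured), more than 200 and fewer than 6000 genes, and less than 5% mitochondrial UMIs. This left 8557 cells of the control IgG library, with a median of 5526 UMIs, and 11269 cells of the anti-CD3L1 library, with a median of 8267 UMIs. A cell was called NK when at least 4 of 8 marker genes were detected (Ncr1, Klrb1c, Klre1, Klrk1, Klri2, Klrc1, Eomes and Txk) and no other class scored as high. The gate held 160 cells of the control IgG library (1.87%, 95% exact binomial interval 1.59 to 2.18) and 842 of the anti-CD3L1 library (7.47%, 6.99 to 7.97). Neutrophils made up 69.1% of the cells with control IgG and 4.88% with anti-CD3L1, while macrophages made up 8.13% and 42.9%. The libraries shared 26 cell barcodes, which were those of 0 and 2 NK cells.

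The label NK was checked against markers of every class. Each of the 8 NK markers, which made the gate, was detected in 51.3% to 96.3% of the gated control IgG cells and 29.1% to 95.0% of the gated anti-CD3L1 cells. Of the 7 T cell markers, 5 and 6 were detected, at a summed 608 and 567 CPM (the UMIs of a gene in a class as a share of all UMIs of that class, scaled to 1e+06), with Trbc1 in 87.5% and 88.4% of the cells, but Cd3e had 0 and 2 UMIs and Cd8b1 had 0 in both. Trbc2 was detected in 41.3% and 37.3% of the cells and Cd3g in 35.6% and 27.4%. The 7 innate lymphoid markers summed to 437 and 278 CPM. Of these, Gata3 was detected in 52.5% and 37.2% of the cells and Rora in 45.6% and 46.7%, while Il1rl1 had 5 and 12 UMIs. The 7 macrophage markers summed to 44.0 and 129 CPM. The 5 monocyte markers summed to 213 and 271 CPM, with Ccr2 in 68.1% and 68.5% of the cells. The 6 mature dendritic cell markers summed to 112 and 207 CPM, with Ccr7 in 21.9% and 34.6% of the cells. Zbtb46, a marker of type 2 conventional dendritic cells, was detected in 51.9% and 32.8% of the cells. The 8 neutrophil markers summed to 2332 CPM in the control IgG NK cells and to 25.1 CPM in the anti-CD3L1 NK cells. S100a8, the most familiar of them, stood at 31260 CPM with control IgG and 835 CPM with anti-CD3L1 in near-empty barcodes (1 to 50 UMIs), so free neutrophil RNA moved with the groups. The neutrophil UMIs in the control IgG NK cells were uneven, however. A single cell held 735 of 1948 S100a8 UMIs, at a median of 3 per cell, and a single cell 927 of 2435 S100a9 UMIs, at a median of 4.

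The sequences upstream of 4 members are shown because these genes carry the comparison below. In pooled level, Gzma differed little between the libraries and Gzmb and Gzmc were lower with anti-CD3L1, and perforin works together with all of them. Each run holds 250 bases before and 50 bases after the start of the gene on its own strand, from RefSeq on GRCm38.p6, an older build than the GRCm39 that the submitters' processing notes name. The table held 8 of the 9 members. Capitals mark matches to any of 5 short motifs of factor families active in NK cells (RUNX, T-box, STAT, AP-1 and ETS), searched on both strands.
Gzma, chr13:113100932-113101231, minus strand: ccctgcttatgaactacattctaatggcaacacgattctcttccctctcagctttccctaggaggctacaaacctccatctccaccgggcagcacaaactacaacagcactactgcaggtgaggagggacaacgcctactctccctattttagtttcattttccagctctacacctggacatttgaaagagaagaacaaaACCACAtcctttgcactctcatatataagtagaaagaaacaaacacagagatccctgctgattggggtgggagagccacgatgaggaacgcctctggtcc
Gzmb, chr14:56262285-56262584, minus strand: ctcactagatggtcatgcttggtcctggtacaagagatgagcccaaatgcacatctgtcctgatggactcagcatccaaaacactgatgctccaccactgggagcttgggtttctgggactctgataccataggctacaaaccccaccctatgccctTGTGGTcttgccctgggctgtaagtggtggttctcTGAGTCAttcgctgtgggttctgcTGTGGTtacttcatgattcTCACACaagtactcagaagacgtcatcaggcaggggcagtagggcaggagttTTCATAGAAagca
Gzmc, chr14:56234608-56234907, minus strand: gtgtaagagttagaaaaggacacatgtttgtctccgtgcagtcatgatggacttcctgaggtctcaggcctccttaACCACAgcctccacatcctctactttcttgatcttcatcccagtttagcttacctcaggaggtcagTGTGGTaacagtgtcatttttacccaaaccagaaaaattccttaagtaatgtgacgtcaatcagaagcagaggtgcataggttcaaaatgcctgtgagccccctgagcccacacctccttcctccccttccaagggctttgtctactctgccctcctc
Prf1, chr10:61297586-61297885, plus strand: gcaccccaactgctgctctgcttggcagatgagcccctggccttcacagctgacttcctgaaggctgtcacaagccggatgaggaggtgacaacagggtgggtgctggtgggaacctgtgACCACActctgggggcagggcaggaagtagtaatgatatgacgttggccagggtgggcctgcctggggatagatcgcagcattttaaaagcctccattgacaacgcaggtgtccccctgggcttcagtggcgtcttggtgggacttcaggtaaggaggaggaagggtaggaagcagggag

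The motif of RUNX factors, TGTGGT, was present in 6 of the 8 promoters, and 16.8% of 32851 mouse promoters of the same length held it. Counted from the start of the gene, the copies of Gzmb began at -93 and -34, those of Gzmc at -174 and -108, that of Gzma at -50 and that of Prf1 at -130. Nkg7 and Xcl1 held 1 copy each. The T-box motif TCACAC, read by EOMES and T-BET, was present in 3 of 8 (Gzmb, Nkg7 and Xcl1), against 14.5% of all promoters. The STAT motif TTCNNNGAA was present in 2 of 8 (8.30% of all) the AP-1 motif TGANTCA in Gzmb alone (7.81% of all), and the ETS motif CCGGAAG in 0 of 8 (8.86% of all). These matches describe letters in a short window and were not tested for binding. No 2 of these motifs overlapped in the runs shown.

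The first question was which cells carried the transcripts. In the control IgG library, NK cells were 1.87% of the cells and held 91.5% of the UMIs of Gzma, 89.9% of Gzmb, 95.6% of Gzmc, 91.9% of Prf1, 92.2% of Nkg7 and 92.0% of Xcl1. In the anti-CD3L1 library they held 80.8%, 82.1%, 63.6%, 86.2%, 82.4% and 80.3% of the UMIs of these genes. The granule genes and Xcl1 thus lay mostly within the NK gate in both libraries. Over the 9 members together, the gate held 60.3% of 26365 UMIs and 54.9% of 121177 UMIs. Ccl5, which many cells make, gave 12102 and 68804 of these UMIs.

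Tnfsf10 and Ccl5 were spread more widely in both libraries, and Fasl in the control IgG library. NK cells held 68.8% of the Fasl UMIs with control IgG and 79.7% with anti-CD3L1, and neutrophils held another 23.1% with control IgG, as 89 UMIs at no more than 2 in a cell. Of Tnfsf10, NK cells held 23.4% and 34.4%, while monocytes held 43.5% and 21.4% and macrophages 16.3% and 26.1%. Of Ccl5, NK cells held 24.5% and 36.2%, monocytes 42.0% and 12.0%, and macrophages 16.3% and 28.9%. Macrophages were 8.13% and 42.9% of the cells and monocytes 14.5% and 23.9%.

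Level by level, each member was higher in NK cells than in any other class of at least 50 cells in the control IgG library. The ratio of the NK level to that of the next class was at least 2 for 9 of 9 members, against 15.9% of the 14732 genes compared in this way, over 3 other classes. The next class was the neutrophils for 7 members, at ratios between 53.0 for Fasl and 738 for Xcl1. Monocytes came next for Tnfsf10, at 5.71 CPM against 24.0 in NK cells, a ratio of 4.20, and for Ccl5, at 318 CPM against 1452, a ratio of 4.56.

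In the anti-CD3L1 library, with 9 other classes to compare, 5 of 9 members were at least 2-fold over every other class, against 1.95% of 16778 genes. They were Gzma, Gzmb, Prf1, Nkg7 and Fasl, at ratios between 6.84 and 23.5 over the class that came next, the innate lymphoid cells defined by Gata3 and Il1rl1. This class of 120 cells stood at 809 CPM of Gzmc, 56.3 CPM of Tnfsf10 and 768 CPM of Xcl1, where NK cells stood at 308, 24.7 and 890 CPM. A single cell held 45.8% of its Gzmc UMIs, and another held 82.1% of its Xcl1 UMIs, as 459 molecules. The remaining exception was Ccl5, at 4033 CPM in mature dendritic cells and 2840 CPM in NK cells.

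Some cells outside the gate also held NK markers, and the members followed those cells. Taking the 7 members other than Ccl5 and Tnfsf10 together, cells outside the gate with 0 NK markers stood at 4.08 CPM (95% exact Poisson interval 3.59 to 4.63) with control IgG and at 10.0 CPM (9.27 to 10.8) with anti-CD3L1. Cells with 2 or 3 NK markers stood at 550 and 1874 CPM, and cells with 4 or more that another class also claimed at 2870 and 2229 CPM. Inside the gate the level was 6302 and 4714 CPM. The cells with at least 2 NK markers held 18.0% and 56.9% of the UMIs outside the control IgG gate, for 2 to 3 and for 4 or more markers, and 61.8% and 26.7% of those outside the anti-CD3L1 gate.

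When cells with 2 or more NK markers were left out of the other classes, the count of members at least 2-fold over every other class stayed at 9 with control IgG and became 7 with anti-CD3L1. The level in innate lymphoid cells was then 5.65 CPM for Gzmc and 1.88 CPM for Xcl1. Tnfsf10 remained at 62.1 CPM there, in molecules spread over the class with no more than 5 in a cell, and Ccl5 remained at 3674 CPM in mature dendritic cells. Apart from the gate, near-empty barcodes held 208 CPM of Gzma and 690 CPM of Ccl5 in the anti-CD3L1 library and 40.5 and 198 CPM in the control IgG library. The levels of the 7 members other than Ccl5 and Tnfsf10 in monocytes, macrophages and neutrophils were below those of near-empty barcodes in the same library.

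**Figure D1:**
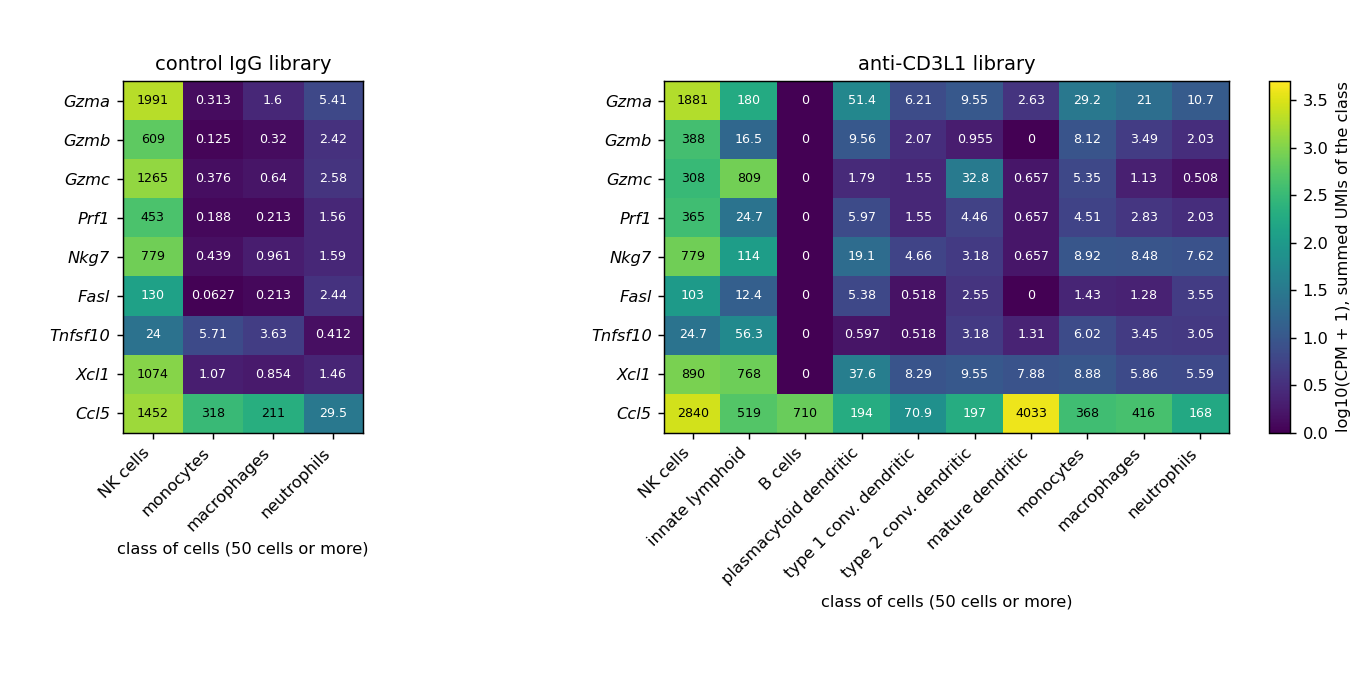
Level of each of the 9 genes (rows) in each class of at least 50 cells (columns), left for the control IgG library and right for the anti-CD3L1 library, with CPM as the number in a square and log10(CPM + 1) as its color. Granule genes and Xcl1 are high in the NK column and, in the anti-CD3L1 library, Gzmc and Xcl1 also in innate lymphoid cells (809 and 768 CPM), while Ccl5 is seen in most classes and is highest in mature dendritic cells (4033 CPM).

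Classes under 50 cells were too small for the comparison above but held a few levels worth stating. The T cell class of the anti-CD3L1 library, 36 cells of which 21 had at least 2 NK markers, stood at 1130 CPM of Gzma, 573 CPM of Nkg7 and 2894 CPM of Ccl5. Mast cells and basophils, 12 cells of the same library, held 60 UMIs of Gzmb, 41 of them in 1 cell, and 0 UMIs of Gzma and Prf1.

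The second question was how the members differed between the NK cells of the 2 libraries. The NK cells held 2045240 UMIs with control IgG and 8782407 with anti-CD3L1, with medians of 11453.5 and 9321.5 UMIs per cell. Of the 9 members, 2 were higher and 7 lower with anti-CD3L1, and their median log2 ratio was -0.27, while over the 11448 genes with at least 20 UMIs the median was 0.15 (quartiles -0.11 and 0.45). At a threshold of 2-fold, 0 of 9 members were higher and 1 of 9, Gzmc, was lower. Among all 11448 genes 8.11% were at least 2-fold higher and 2.51% at least 2-fold lower. All 9 members passed the minimum of 20 UMIs.

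**Figure D2:**
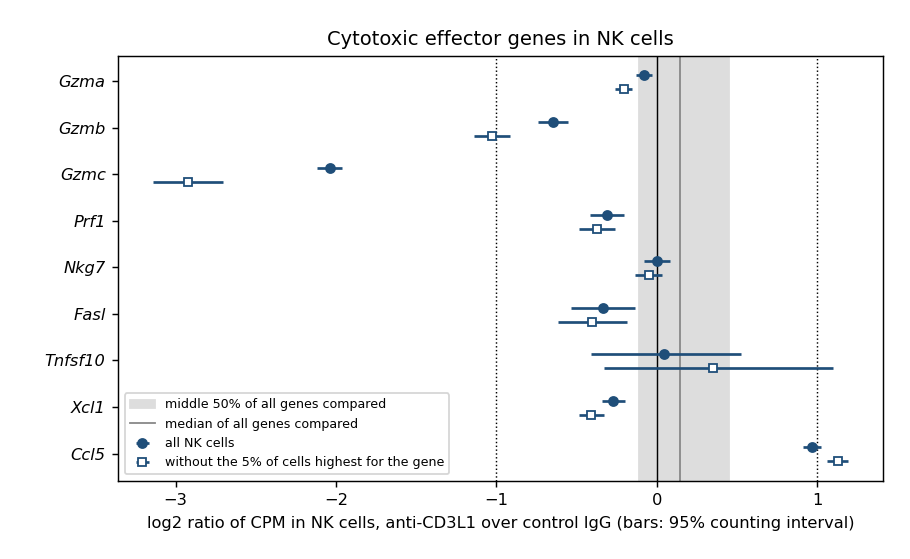
Log2 ratio of CPM in NK cells, anti-CD3L1 over control IgG, for each of the 9 genes (filled circles, all NK cells; open squares, without the 5% of cells of each library highest for that gene; bars, 95% counting intervals; gray band and line, quartiles and median of the 11448 genes compared). Gzmc lies at -2.04 and moves to -2.92 without its highest cells, Gzmb moves from -0.65 to -1.03, and Ccl5 lies near a doubling at 0.97. The 5% cut is smaller than the share of control IgG NK cells with 10 or more Gzmc UMIs (10.6%).

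Gzmc, a granzyme whose gene lies beside Gzmb, showed the widest difference of the 9. NK cells held it at 1265 CPM with control IgG and at 308 CPM with anti-CD3L1, and the log2 ratio was -2.04 (95% counting interval -2.12 to -1.96), and 0.55% of all genes had a lower ratio. These levels rested on few cells. The 10% of NK cells with the most Gzmc held 96.9% of its UMIs with control IgG and 97.5% with anti-CD3L1, and 1 cell alone held 603 of 2588 and 292 of 2704 UMIs. Without the 5% of cells highest for the gene, an alternative chosen after seeing the data, the levels were 257 and 33.9 CPM and the log2 ratio was -2.92. Cells with 10 or more Gzmc UMIs were 10.6% of the NK cells with control IgG and 4.87% with anti-CD3L1. The 5% cut thus could not remove all of them with control IgG. In the NK cells with fewer than 10 Gzmc UMIs, the levels were 42.0 and 33.7 CPM. A Gzmc UMI was found in 11.3% and 6.78% of thinned cells, and the interval of the difference, -10.6 to 0.37 points, spanned 0.

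Gzmb, the granzyme that cleaves caspases, was also lower with anti-CD3L1. It stood at 609 and 388 CPM, a log2 ratio of -0.65 (-0.74 to -0.55), and 5.47% of all genes had a lower ratio. A UMI of it was found in 65.0% of the control IgG NK cells and in 50.8% of the anti-CD3L1 NK cells. With each cell thinned at random to 1000 UMIs these shares were 35.6% and 20.9%, a difference of -14.7 percentage points (-23.1 to -6.74). Detection and level thus pointed the same way for Gzmb.

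Gzma, the other major granzyme of mouse NK cells, differed little in its pooled level. It stood at 1991 CPM in the control IgG NK cells and 1881 CPM in the anti-CD3L1 NK cells, a log2 ratio of -0.08 (-0.13 to -0.03). Without the 5% of cells highest for it, the log2 ratio was -0.21 (-0.26 to -0.15). Its median per cell, at unequal depth, was 14.5 UMIs with control IgG and 5 with anti-CD3L1. The share of thinned cells with a UMI was 53.1% and 47.7%, and the interval of the difference, -14.1 to 3.30 percentage points, spanned 0. Prf1, which encodes the pore, stood at 453 and 365 CPM (log2 ratio -0.31, -0.42 to -0.21) and was found in 87.5% and 82.2% of NK cells. After thinning the shares were 36.9% and 29.8%, and the interval of the difference, -15.6 to 1.11 points, spanned 0. Nkg7 stood at 779 CPM in both libraries, with an interval of the log2 ratio from -0.08 to 0.08, and was detected in 96.3% and 94.5% of NK cells.

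The death ligands were held at far fewer molecules. Fasl stood at 130 and 103 CPM, from 265 and 901 UMIs, with a log2 ratio of -0.34 (-0.54 to -0.13). Its median was 1 UMI per NK cell in both libraries. Tnfsf10 stood at 24.0 and 24.7 CPM, from 49 and 217 UMIs, with a log2 ratio of 0.04 and an interval, -0.41 to 0.52, that allows a difference in either direction. After thinning, 3.12% and 2.73% of NK cells had a Tnfsf10 UMI, which is 5 and 23 cells. A separate random draw of the thinning, used for the levels, left 1 and 24 UMIs, so thinned values of this gene are too low to compare.

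The 2 chemokines differed in opposite directions. Xcl1 stood at 1074 CPM with control IgG and 890 CPM with anti-CD3L1, a log2 ratio of -0.27 (-0.34 to -0.20), and after thinning it was found in 51.9% and 41.7% of NK cells, a difference of -10.1 points (-18.8 to -1.42). Ccl5 stood at 1452 and 2840 CPM, a log2 ratio of 0.97 (0.91 to 1.02), and 91.4% of all genes had a lower ratio. A Ccl5 UMI was found in 65.0% and 89.3% of NK cells, and after thinning in 41.9% and 65.5%, a difference of 23.6 points (14.9 to 32.0). Ccl5 was the 1 member for which both the level and the thinned share were higher in the anti-CD3L1 library. The intervals of all these differences cover counting error within 1 library per group and are no test between the groups. Near-empty barcodes also held more Ccl5 there, 690 against 198 CPM.

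Ccl5 also differed between the libraries in other classes. In monocytes it stood at 318 CPM with control IgG and 368 CPM with anti-CD3L1, in macrophages at 211 and 416 CPM, and in neutrophils at 29.5 and 168 CPM. The level was thus higher with anti-CD3L1 in each of these 3 classes, the ones with at least 50 cells in both libraries beside NK cells. All 3 anti-CD3L1 levels were below the Ccl5 level of near-empty barcodes of that library. With control IgG only the neutrophils lay below it. The part of free RNA in these differences was not tested. Classes with few control IgG cells differed either way. In mature dendritic cells (10 control IgG cells) the values were 2890 and 4033 CPM, and in type 2 conventional dendritic cells (17 control IgG cells) they were 372 and 197 CPM.

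The ratios were also taken with allowance for neutrophil RNA, but its effect on them was not tested. With the neutrophil markers left out of the total, the log2 ratio of Gzmc was -2.04, that of Gzmb -0.65 and that of Ccl5 0.96. These markers summed to only 2332 CPM in the control IgG NK cells, so leaving them out could shift a ratio only slightly. Other neutrophil RNA stayed in the total. With the profile of near-empty barcodes subtracted, the ratios were -2.07, -0.68 and 0.94. The amount subtracted was set by the S100a8 and S100a9 UMIs of the NK cells.

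Single NK cells varied widely, and the plot of UMIs per cell gives every one of them. For Gzma the median was 14.5 UMIs and the highest 199 in the 160 control IgG cells, with 51 cells at 0, and the median was 5 and the highest 253 in the 842 anti-CD3L1 cells, with 302 at 0. For Ccl5 the medians were 3.5 and 16 UMIs, the highest values 196 and 204, and 56 and 90 cells were at 0. These 2 genes therefore had cells with none and cells with over 100 molecules in each library. For Gzmb the medians were 3 and 1 UMIs and the highest values 78 and 121. For Xcl1 they were 8 and 4, and 171 and 163. For Prf1 they were 4 and 3, and 50 and 39, and for Nkg7 9 and 7, and 35 and 42. Nkg7 was the most evenly spread, with 25.2% and 27.0% of its UMIs in the 10% of cells highest for it.

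**Figure D3:**
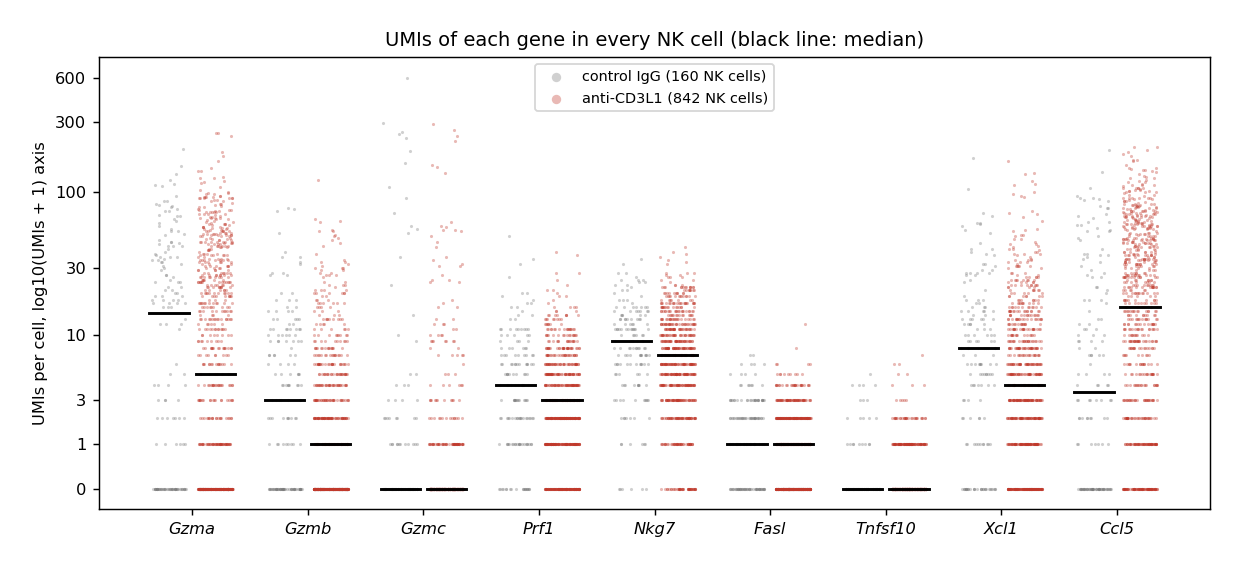
UMIs of each gene in every NK cell, 160 of the control IgG library (gray) and 842 of the anti-CD3L1 library (red), on a log10(UMIs + 1) axis with black lines at the medians; a point is 1 cell. Gzmc has its median at 0 in both libraries with a few cells up to 603 and 292 UMIs, and Ccl5 has its median at 3.5 and 16.

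Gzma, Gzmb and Prf1, the core of the granule, were all detected in 53.1% of the control IgG NK cells and in 39.3% of the anti-CD3L1 NK cells, and none of them in 7.5% and 7.84%. Joint detection depends on depth, which was a median of 11453.5 and 9321.5 UMIs per NK cell, and these shares were not taken after thinning. A median of 6 of the 9 members was detected per NK cell in both libraries, and 3 of 9 after thinning.

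Correlations between members within cells differed from pair to pair. Over the NK cells of a library, the Spearman correlation of UMI shares was 0.66 with control IgG and 0.61 with anti-CD3L1 for Gzma and Ccl5, 0.50 and 0.56 for Gzma and Gzmb, and 0.55 and 0.39 for Gzma and Prf1. Xcl1 stood apart from them, with -0.28 in both for Gzma and -0.22 and -0.26 for Ccl5. Gzmc and Ccl5 gave -0.34 and -0.15. Other pairs lay farther apart in the 2 libraries, such as Gzma and Gzmc (-0.21 and 0.01), Gzmc and Tnfsf10 (0.35 and 0.10) and Fasl and Ccl5 (0.43 and 0.21), a difference that was not tested. These values describe cells of 1 library that share its depth and free RNA, and the cells are not replicates.

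**Figure D4:**
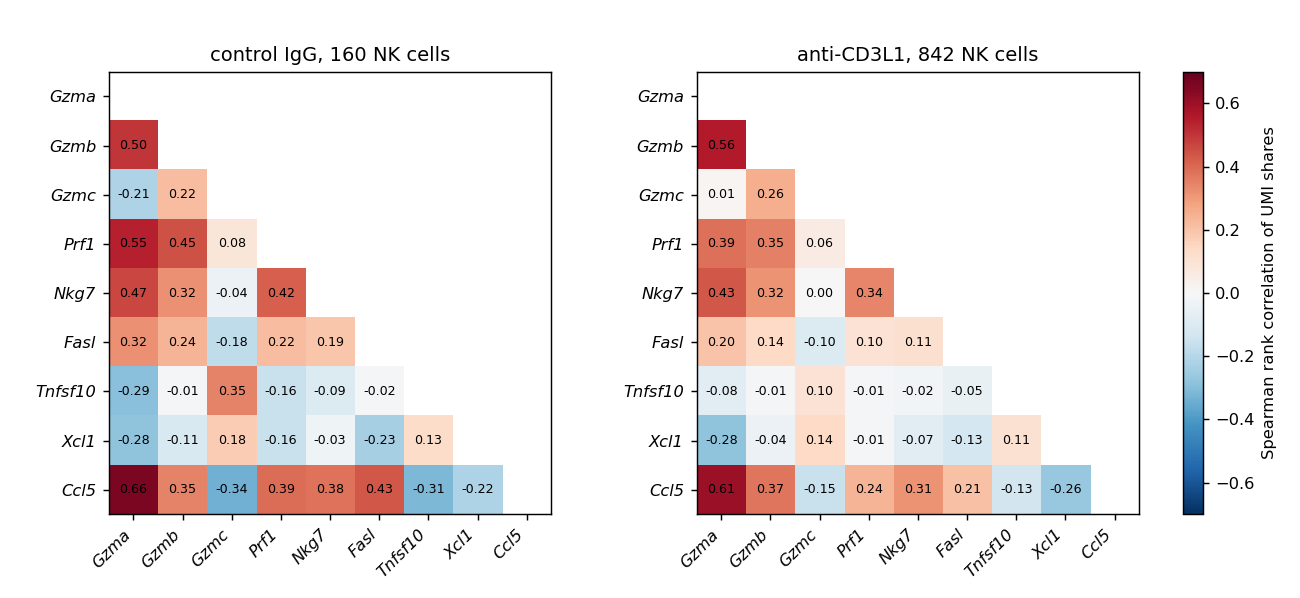
Spearman correlation of UMI shares between each pair of the 9 genes over NK cells, left 160 control IgG cells and right 842 anti-CD3L1 cells (red positive, blue negative, the value in each square). Gzma and Ccl5 form the most positive pair in both (0.66 and 0.61), and Xcl1 is negative against both of them.

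The NK cells were also split by whether a UMI of 1 gene of maturation was detected, which is a description and depends on depth. In cells with a UMI of Itgam, the CD11b gene that mature mouse NK cells carry, Gzma stood at 3762 CPM with control IgG and 3449 CPM with anti-CD3L1, against 1581 and 1541 CPM in cells without. Ccl5 followed with 3585 and 4523 CPM against 958 and 2474. Xcl1 went the other way, with 621 and 792 CPM against 1179 and 912. Gzma and Ccl5 were thus on the side of Itgam in both libraries and Xcl1 on the other. Itgam itself stood at 26.4 and 29.7 CPM in NK cells and at 385 and 151 CPM in all other cells. Whether its UMIs in NK cells came from RNA of other cells was not tested.

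In cells with a UMI of Il7r, the interleukin 7 receptor of immature NK cells and other innate lymphoid cells, Gzma stood at 505 and 628 CPM, against 2276 and 2051 in cells without. In cells with Mki67, a gene of dividing cells, Ccl5 stood at 321 and 1668 CPM, against 2139 and 3588. The median depth of the cells with Mki67, 17066 and 14551 UMIs, was above that of cells without, 10486.5 and 8282. In cells with Itga1, the CD49a gene of tissue-resident NK cells and type 1 innate lymphoid cells, Gzmc stood at 2516 CPM with control IgG and 573 CPM with anti-CD3L1, against 439 and 238 in cells without. Ccl5 stood at 297 and 1887 CPM, against 2214 and 3092. In cells with Klrg1, an inhibitory receptor gene, Gzmc stood at 2993 and 322 CPM, against 581 and 300 in cells without.

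Gzma had no common direction over some of these splits. In cells with Itga1 it stood at 1206 CPM against 2511 with control IgG and at 2047 against 1838 with anti-CD3L1. In cells with Eomes it stood at 2133 against 1125 CPM with control IgG and at 1755 against 2601 with anti-CD3L1. In cells with Ifng it stood at 1714 against 2160 CPM and at 2247 against 1419 CPM. Whether these orders differ between the libraries was not tested.

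The cells with 10 or more Gzmc UMIs were then described on their own. They numbered 17 of 160 with control IgG (10.6%, 6.31 to 16.5) and 41 of 842 with anti-CD3L1 (4.87%, 3.52 to 6.55), and they held 97.3% and 89.8% of the Gzmc UMIs. They were also deeper, with medians of 19959 and 13535 UMIs against 10908 and 9077 in the other NK cells. Since the cells were picked by Gzmc, the values below are a description without any test.

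These cells were richer in Gzmb, at 1172 CPM against 490 with control IgG and 698 against 366 with anti-CD3L1. They were poorer in Ccl5, at 101 against 1735 CPM and 1083 against 2966 CPM, which are log2 ratios of -4.10 and -1.45. Gzma was lower in them in the control IgG library (1115 against 2176 CPM) and near the rest in the anti-CD3L1 library (1774 against 1889 CPM). Itga1 was higher, at 183 against 56.2 CPM and 59.3 against 28.0 CPM, and Eomes lower, at 158 against 249 and 159 against 255 CPM. Klrg1 was also higher, at 73.2 against 36.1 CPM with control IgG and 93.2 against 62.6 CPM with anti-CD3L1. In both libraries these cells were thus higher in Gzmb, Prf1, Xcl1, Tnfsf10, Itga1 and Klrg1 than the other NK cells. They were lower in Ccl5, Fasl, Gzma, Nkg7, Eomes and Itgam, with log2 ratios of only -0.09 for Gzma and -0.15 for Nkg7 with anti-CD3L1. Itgam was low throughout, at 8.45 against 30.2 CPM with control IgG and 8.47 against 31.2 CPM with anti-CD3L1. It was detected in 17.6% against 19.6% of the control IgG cells. Other genes linked to residence did not all follow Itga1. Cxcr6 stood at 14.1 against 29.0 CPM with control IgG and at 72.9 against 10.4 CPM with anti-CD3L1, and Il7r at 16.9 against 55.6 and 15.3 against 24.3 CPM. The interval of the log2 ratio spanned 0 for Cxcr6 with control IgG (-2.73 to 0.28) and for Il7r with anti-CD3L1 (-1.82 to 0.28). With control IgG, Cxcr6 was detected in 23.5% of the cells rich in Gzmc and 12.6% of the other NK cells.

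**Figure D5:**
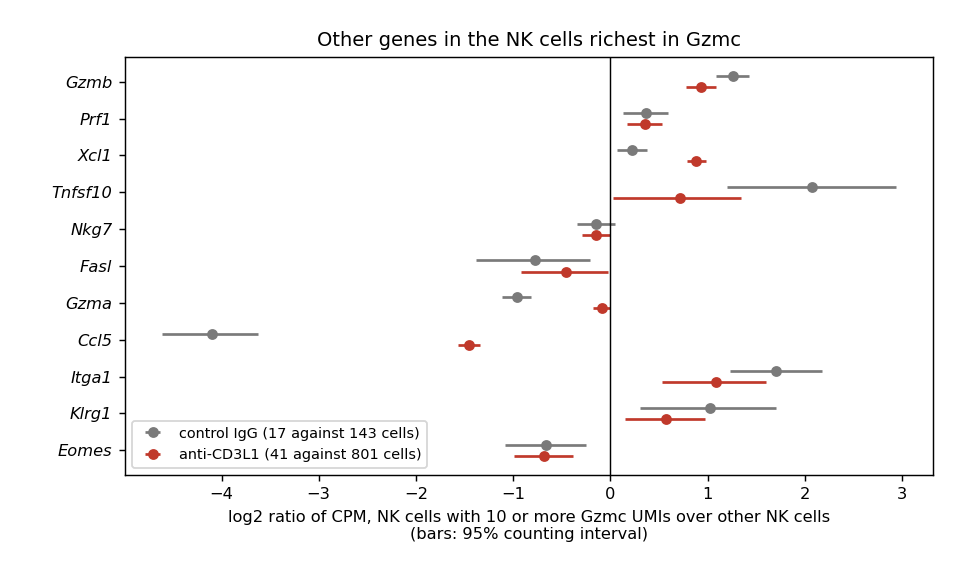
Log2 ratio of CPM between NK cells with 10 or more Gzmc UMIs and the other NK cells, for the other members and for Itga1, Klrg1 and Eomes (gray, control IgG, 17 against 143 cells; red, anti-CD3L1, 41 against 801 cells; bars, 95% counting intervals). Gzmb, Prf1, Xcl1, Tnfsf10, Itga1 and Klrg1 lie to the right of 0, and Ccl5 lies farthest to the left at -4.10 and -1.45.

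The neighbors of Gzmc on the chromosome were found in the same cells. In GENCODE M21, Gzme, Gzmd, Gzmg, Gzmn, Gzmf, Gzmc and Gzmb follow each other on chromosome 14, all on the minus strand. The cells with 10 or more Gzmc UMIs held 100% of 245 Gzmd UMIs, 96.4% of 84 Gzme UMIs and 98.3% of 120 Gzmf UMIs in the control IgG NK cells. In the anti-CD3L1 NK cells they held 73.3% of 165, 65.6% of 96 and 76.4% of 106. Of Gzmb, at the end of the row, they held 33.4% and 12.1%. Gzmg had 5 UMIs in each library and Gzmn had 0. Gzmd, Gzme and Gzmg share part of their sequence, with 2.17%, 0.967% and 1.59% of their 90-base windows also found in another transcript. None of the 9 members shared such a window. Only exact matches over the whole transcript were counted. How far shared sequence affects the counts was not tested, since the chemistry and read length are not given.

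Most other granzymes differed between the libraries in the direction of Gzmc. Of 7 listed, 5 passed the minimum of 20 UMIs, with a median log2 ratio of -1.91. Of these, 4 were at least 2-fold lower with anti-CD3L1 and 1 at least 2-fold higher, beside 2.51% and 8.11% of all genes. Gzmd stood at 120 and 18.8 CPM, Gzmf at 58.7 and 12.1 CPM, Gzme at 41.1 and 10.9 CPM and Gzmk, the neighbor of Gzma on chromosome 13, at 8.80 and 3.53 CPM. Gzmm was the exception, at 3.42 and 13.4 CPM, from 7 and 118 UMIs. Gzmd, Gzmf and Gzme were found in only 6, 5 and 7 control IgG NK cells. The cell highest for each gene held 173 of the 245 Gzmd UMIs, 78 of the 120 Gzmf UMIs and 49 of the 84 Gzme UMIs. With anti-CD3L1 the highest cell held 74 of 165, 76 of 106 and 32 of 96. Since most of these UMIs lay in the cells rich in Gzmc, these genes are not separate evidence of a common direction.

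Of 12 genes of the granule, of its release and of protection from granzymes, 0 were past 2-fold in either direction, beside 8.11% and 2.51% of all genes, and their median log2 ratio was -0.13. Srgn, the proteoglycan that holds granzymes in the granule, stood at 1821 and 1279 CPM. Calr stood at 503 and 572 CPM, Serpinb6b at 526 and 487 CPM, and Serpinb9, the inhibitor that guards the cell against granzyme B, at 451 and 329 CPM. Of the release genes, Rab27a, which brings granules to the membrane, stood at 41.1 and 25.2 CPM (log2 ratio -0.71, -1.08 to -0.33). This was the lowest ratio of the list. Stx11, Lyst, Stxbp2 and Unc13d had log2 ratios of -0.25, -0.16, -0.15 and -0.03. Lamp1 went the other way, at 0.56 (0.33 to 0.79).

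Receptors of the displayed and secreted members were measured in the NK cells themselves, and 6 of 9 passed the minimum. Of these, 0 were at least 2-fold higher and 2 were at least 2-fold lower (median log2 ratio -0.26), beside 8.11% and 2.51% of all genes. Fas, the receptor of Fas ligand, stood at 122 and 51.6 CPM, and Tnfrsf10b, the TRAIL receptor, at 3.91 and 1.82 CPM from 8 and 16 UMIs. Xcr1, the receptor of XCL1, had 0 and 5 UMIs in NK cells.

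Of 8 other cytokines of NK cells, 1 was at least 2-fold higher with anti-CD3L1 and 1 at least 2-fold lower, beside 8.11% and 2.51% of all genes. Their median log2 ratio was 0.36. Ccl4, a chemokine of the family of Ccl5, stood at 273 and 682 CPM, and Ifng, the interferon by which NK cells activate macrophages, at 133 and 198 CPM. Csf2 was the 1 lower gene, at 16.6 and 4.67 CPM. Ccl3 stood at 91.9 and 165 CPM and Ltb at 243 and 208 CPM.

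Receptors and adaptors were counted beside the same background, 8.11% of all genes higher and 2.51% lower, and counts near it are no result about a list. Of 8 activating receptors 0 were past 2-fold (median log2 ratio -0.21), with Klrk1 at 357 and 295 CPM, Ncr1 at 225 and 251 CPM and Crtam at 158 and 242 CPM, the first 2 of which served to gate the cells. Of 9 signaling adaptors and kinases 0 were past 2-fold (median 0.02), with Tyrobp at 1118 and 1134 CPM and Fcer1g at 463 and 567 CPM. Of 8 inhibitory receptors, Havcr2 was higher, at 12.2 and 31.9 CPM, and Lag3 lower, at 18.1 and 8.77 CPM (median 0.31), while Klrc1, also a gate gene, stood at 138 and 113 CPM and Cd96 at 53.3 and 73.3 CPM. Of 8 cytokine receptors, Il21r was higher, at 65.0 and 131 CPM, and Il18r1, which binds interleukin 18, lower, at 430 and 162 CPM (median -0.38). Il2rb stood at 877 and 870 CPM and Il12rb2 at 318 and 335 CPM.

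Of 12 transcription factors, Tox was at least 2-fold higher, at 102 and 265 CPM, and 0 were at least 2-fold lower (median log2 ratio 0.14). Among all genes these shares were 8.11% and 2.51%. Zeb2 stood at 406 and 624 CPM and Ikzf2 at 548 and 468 CPM. Runx3, one of the RUNX factors, stood at 1098 and 569 CPM, a log2 ratio of -0.95. Tbx21, which encodes T-BET, stood at 132 and 183 CPM.

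Of 9 markers of maturation and residence, 3 were at least 2-fold higher with anti-CD3L1 and 2 at least 2-fold lower (median log2 ratio -0.20). The background was again 8.11% and 2.51% of all genes. Cd27 stood at 44.5 and 110 CPM and Cx3cr1 at 5.87 and 12.1 CPM. S1pr5, a receptor by which mature NK cells leave tissues, had 0 and 28 UMIs, which is at least 2.17-fold higher when 3 UMIs are set as the floor. Cd69 stood at 228 and 193 CPM. Itga1 was lower, at 78.2 and 30.1 CPM, as was Il7r, at 48.9 and 23.7 CPM. Of 8 cell cycle genes 0 were past 2-fold (median 0.26), with Stmn1 at 291 and 308 CPM and Top2a at 146 and 166 CPM.

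The members were also compared with each other over the 14 points given by 10 classes of the anti-CD3L1 library and 4 of the control IgG library. The Pearson correlation of a member's log2(CPM + 10) with the mean of the other members was 0.99 for Nkg7, 0.97 for Gzma and Prf1, 0.90 for Gzmc, 0.82 for Tnfsf10 and 0.52 for Ccl5. Ccl5 and Tnfsf10 were thus the least like the rest. Among 9611 other genes, those with patterns most like the mean of the 9 were Cd247 (0.994), Thy1 (0.993), Myo16 (0.993), Eya2 (0.989), Sh2d2a (0.987), Arhgef5 (0.986), Ifng (0.985), Samd3 (0.985), Trdc (0.985) and Il2rb (0.983). The points of a library share its free RNA and its depth, and these values are a description.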

How the data were processed

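Per the labels and the study's methods, each library was made from CD45 bead-sorted cells of a set of 3 tumors, whose pooling is not described in the sources used here, and the authors deposited raw UMI counts for every barcode and gene, which Cell Ranger 7.1.0 had produced, before any choice of cells. The submitters' processing notes also name Seurat 5.1.0 and GRCm39. The chemistry and read length are not given in the sources used here, so levels were not compared between genes.

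Levels (CPM) are the pooled UMIs of a gene within a class relative to the total of that class. Cells were assigned to 13 classes by the share of each class's markers detected (at least 40%, the highest share winning), ties stayed without a class, and no member was a marker. The 95% intervals were exact binomial for shares, exact Poisson for CPM and exact conditional binomial for ratios. PCR copies are removed by the UMI, and intervals cover counting error only. A count of 0 was set to 3 UMIs as the floor. With 1 library per group there was no test across samples and no p-value, and a member was called at 2-fold. Doublets were kept. Shares of cells with a UMI were also taken after thinning each cell to 1000 UMIs, which left out 0 control IgG and 1 anti-CD3L1 NK cells.

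The members, marker lists and gene lists were chosen with earlier results of these data known. Beside the members, the genes named are the 2 to 4 with the most UMIs of each list and the 10 most like the members over classes, and the values of some list genes are not reported here. The list genes past 2-fold, Rab27a and the genes given beside it, the splits of NK cells and the cells rich in Gzmc were chosen after their values were seen. A table of macrophage genes with the authors' own fold changes and p-values was not used. The ratio and thinning steps were tested on simulated data. Python 3.11.15 was used with pandas 2.3.3, scipy 1.17.1, numpy 2.4.6, igraph 0.11.9, scanpy 1.11.5 and matplotlib 3.10.9. Promoters came from RefSeq on GRCm38.p6 and gene order and transcripts from GENCODE M21, matched by symbol, and no coordinates were moved between builds. Alternatives changed the cell filters, the gate, clustering, scaling, depth and free RNA, and those that left out the cells highest for a member, Gzmc or cells with 2 NK markers were added after seeing the data.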

Additional observations from a re-analysis of the deposited data

How the results depend on the processing

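The median log2 ratio of the 9 members, -0.27, stayed below 0 under every alternative run. It was -0.073 without the 10% of cells with the most UMIs, -0.42 with the median ratio of all genes set to 1 (a shift of 0.15 for every gene), -0.082 with cells thinned to 1000 UMIs, and, in alternatives chosen after seeing the data, -0.19 without the 1 cell highest for each member, -0.37 without the 5% highest and -0.18 without Gzmc. The cause of these differences was not tested. The count of members past 2-fold, 1 (Gzmc), became 2 with 1 NK marker fewer (Ccl5 at 1.01 on the log2 scale), 2 with thinning (Tnfsf10 at 2.19, from 1 and 24 UMIs in this random draw, where another draw left UMIs in 5 and 23 cells), 2 without the 1 highest cell (Ccl5 at 1.03), 3 without the 5% highest (Gzmb and Gzmc lower, Ccl5 higher) and 3 at a threshold of 1.5-fold. The share of the members' UMIs held by NK cells was 60.3% with control IgG and 54.9% with anti-CD3L1. It was 56.8% and 46.7% with 1 NK marker more, 58.5% in the anti-CD3L1 library with 1 fewer, 64.7% and 68.4% with graph clusters (189 and 1158 cells), 61.6% and 56.9% without the 10% of cells with the most UMIs, and 61.9% and 61.4% with free RNA subtracted. That subtraction took 2.95% and 1.03% of the UMIs of NK cells and 7.35% and 22.9% of those of monocytes. It took a larger share still from cells without a class. How much of the RNA removed was the cells' own was not tested, so the nearness of these 2 shares is no result. Over 14 alternatives per member, the log2 ratio kept its sign for 7 members, from -2.92 to -1.68 for Gzmc, from -1.03 to -0.52 for Gzmb and from 0.71 to 1.13 for Ccl5, while Nkg7 (-0.15 to 0.11) and Tnfsf10 (-0.10 to 2.19) took either sign. The -2.92 of Gzmc came from the 5% cut, which left cells rich in Gzmc in the control IgG library. With other classes cleared of cells with 2 NK markers, 9 and 7 members were 2-fold over every class, against 9 and 5. No paired analysis was possible because each group is 1 library. Depth limits Tnfsf10 most, with 49 UMIs in the control IgG NK cells, and tumor-to-tumor variation cannot be estimated.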
